A study of Homo sapiens with 18 samples.

Results

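The genes described here are 10 members of the hypoxia response, namely the transcription factor subunits HIF1A and EPAS1 and the target genes EGLN3, CA9, CA12, VEGFA, ADM, BNIP3, NDRG1 and ANKRD37. They were taken by symbol from a table of 40266 gene symbols, and all 10 are present. RNA was sequenced from 18 libraries in 6 groups of 3. These groups are the parental, Holoclone and Paraclone cells of the lines Panc1 and Panc89. Panc1 comes from a primary pancreatic ductal adenocarcinoma (PDAC) and serves as the mesenchymal-like model, and Panc89 comes from a lymph node metastasis and serves as the epithelial model. Holoclone cells stand for cancer stem cells and Paraclone cells for non-stem cells, both named after the shape of the colony. Each Holoclone or Paraclone group is 1 clone expanded from a single cell, so that clone and cell variant cannot be told apart, and the 3 replicates of a group are passages of the same cells. All 6 groups were grown untreated in the same medium, and no low-oxygen treatment is named for any of them. The p-values therefore measure the spread between passages of 1 line or clone.

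Cells sense oxygen through hydroxylases that mark the alpha subunits of the hypoxia-inducible factors (HIF) for destruction by the VHL ubiquitin ligase. When oxygen is scarce the alpha subunit, encoded by HIF1A or by EPAS1, is spared, pairs with ARNT and binds short hypoxia response elements near genes for glycolysis, acid handling, vessel growth and mitophagy. PDAC is known as a poorly perfused, hypoxic tumour. HIF alpha subunits are controlled mainly as proteins, and the RNA level of HIF1A or EPAS1 is not a measure of their activity.

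The promoter sequences of CA9, ANKRD37, BNIP3 and ADM are shown because these targets differ in how many cores of the hypoxia response element they hold. The sequences are those of RefSeq on GRCh38.p14, each given 5′ to 3′ on the strand of the gene, with positions counted back from the RefSeq transcript start. Capitals mark every ACGTG or GCGTG, the core searched for, or the same letters on the other strand, and a capital run of 6 is a pair of overlapping matches.
CA9, plus strand, chr9:35673898-35673927, positions −30 to −1: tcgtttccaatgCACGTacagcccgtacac
ANKRD37, plus strand, chr4:185396661-185396810, positions −180 to −31: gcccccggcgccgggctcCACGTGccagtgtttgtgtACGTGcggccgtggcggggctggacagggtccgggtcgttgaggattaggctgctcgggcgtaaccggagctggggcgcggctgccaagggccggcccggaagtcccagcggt
BNIP3, minus strand, chr10:131981968-131982103, positions −180 to −45: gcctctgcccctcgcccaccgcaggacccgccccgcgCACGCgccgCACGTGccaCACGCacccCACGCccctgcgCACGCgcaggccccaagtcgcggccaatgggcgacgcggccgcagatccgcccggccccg
ADM, plus strand, chr11:10304893-10305072, positions −180 to −1: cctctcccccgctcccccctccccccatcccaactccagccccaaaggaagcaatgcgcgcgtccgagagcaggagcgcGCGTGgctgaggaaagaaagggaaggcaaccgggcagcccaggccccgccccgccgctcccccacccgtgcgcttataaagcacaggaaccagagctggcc

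BNIP3 held 6 matches in the 300 bases around its start, from −143 to −104, ANKRD37 held 3, at −162, −161 and −143, and CA9 and ADM held 1 each, at −18 and −101. CA12 held 2 matches at −234 and 40, EPAS1 held 1 at −117, EGLN3 held 0, and of the 2 HIF1A promoters 1 held a match, at −204, and the other held 0. Promoters were matched for 8 of the 10 genes, all except VEGFA and NDRG1. Among all 35116 promoters of the same length in the table, 48.4% held at least 1 match, so that a match is common. A match is a description of the letters and not a binding site.

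In TPM, a transcript's share of the library corrected for its length, the members ranged from listed at 0 to 939 TPM. VEGFA and ADM reached the highest levels, HIF1A, EPAS1, BNIP3 and NDRG1 lay in between, and ANKRD37, EGLN3 and CA9 were low. HIF1A, EPAS1 and VEGFA were at 35.3 TPM or more in all 18 libraries. CA12 stayed below 1 TPM in all 18 libraries, from 0.0627 to 0.737 TPM, and was the only one of the 10 genes not tested. The groups were compared with limma on log2(TPM + 1) over the 16093 genes that reached 1 TPM in 3 or more libraries, the other 9 members among them, and adjusted p-values are those of Benjamini and Hochberg over all 16093. The added 1 TPM shrinks the log2 fold change of genes with low levels.

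**Figure D1:**
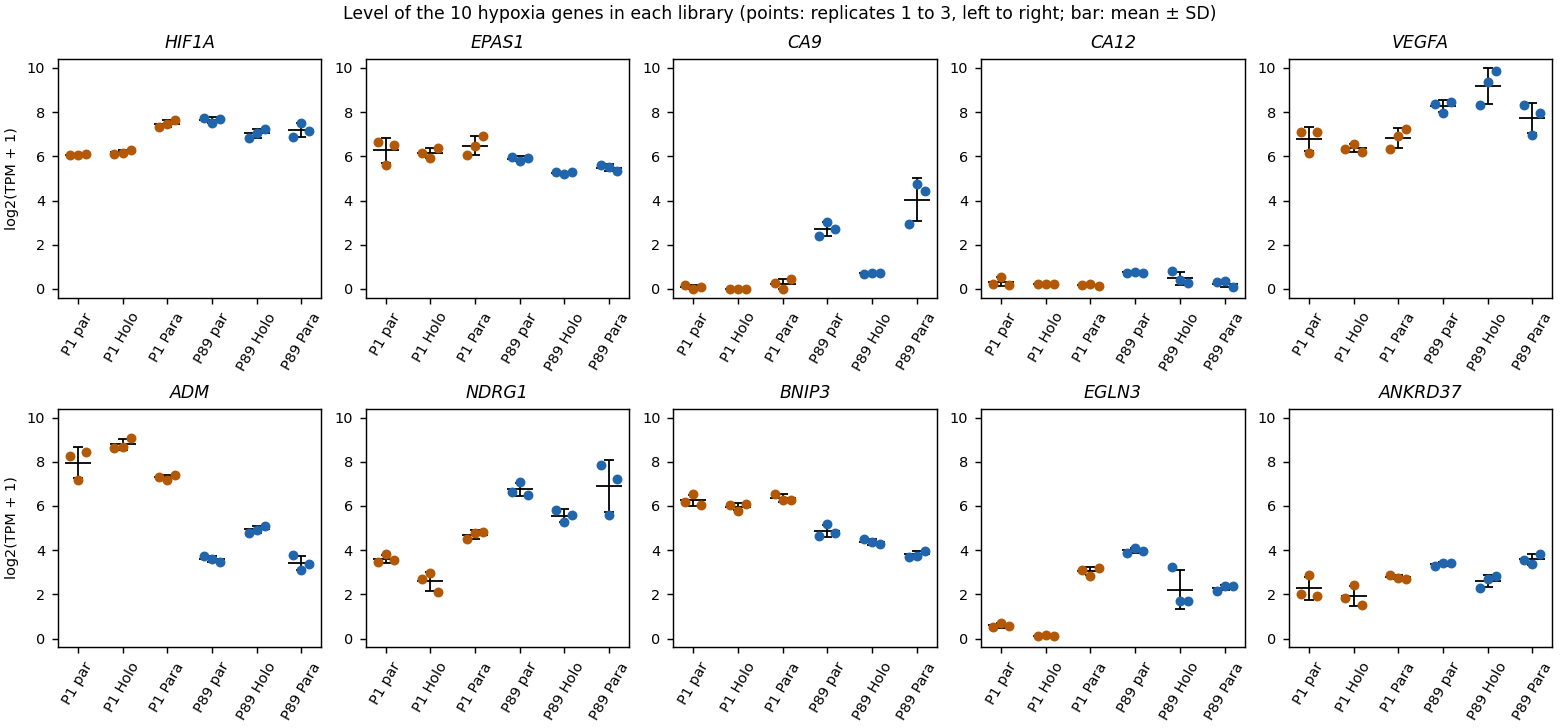
Level of each of the 10 genes, as log2(TPM + 1), in the 6 groups (P1, Panc1 in brown; P89, Panc89 in blue; par, parental; Holo, Holoclone; Para, Paraclone). Points are the 3 replicates and bars the mean ± SD; ADM and BNIP3 lie higher in all 9 Panc1 libraries than in all 9 Panc89 libraries, and CA12 stays near 0 throughout.

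In 3 groups 1 library stood apart in several members. In parental Panc1 cells replicate 2 was the lowest in EPAS1, VEGFA and ADM and the highest in ANKRD37, with ADM 1.20 on the log2 scale below the mean of the other replicates. In Panc89 Holoclone cells replicate 1 was 1.52 above the mean of the others in EGLN3 and 1.32 below it in VEGFA, and in Panc89 Paraclone cells replicate 2 was 1.96 below it in NDRG1 and 1.16 below it in VEGFA. Replicate 1 of the same Paraclone group was 1.63 below the mean of the others in CA9. Over all tested genes the mean correlation of a library with its replicates was 0.962 for replicate 2 of Panc89 Paraclone, 0.970 for replicate 1 of each Panc89 clone and 0.976 to 0.989 for the other 15. The 3 libraries left out together in the counts given later are replicate 2 of parental Panc1, replicate 1 of Panc89 Holoclone and replicate 2 of Panc89 Paraclone, and they were chosen for standing apart after the data were seen, so that leaving them out narrows the spread by construction.

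**Figure D2:**
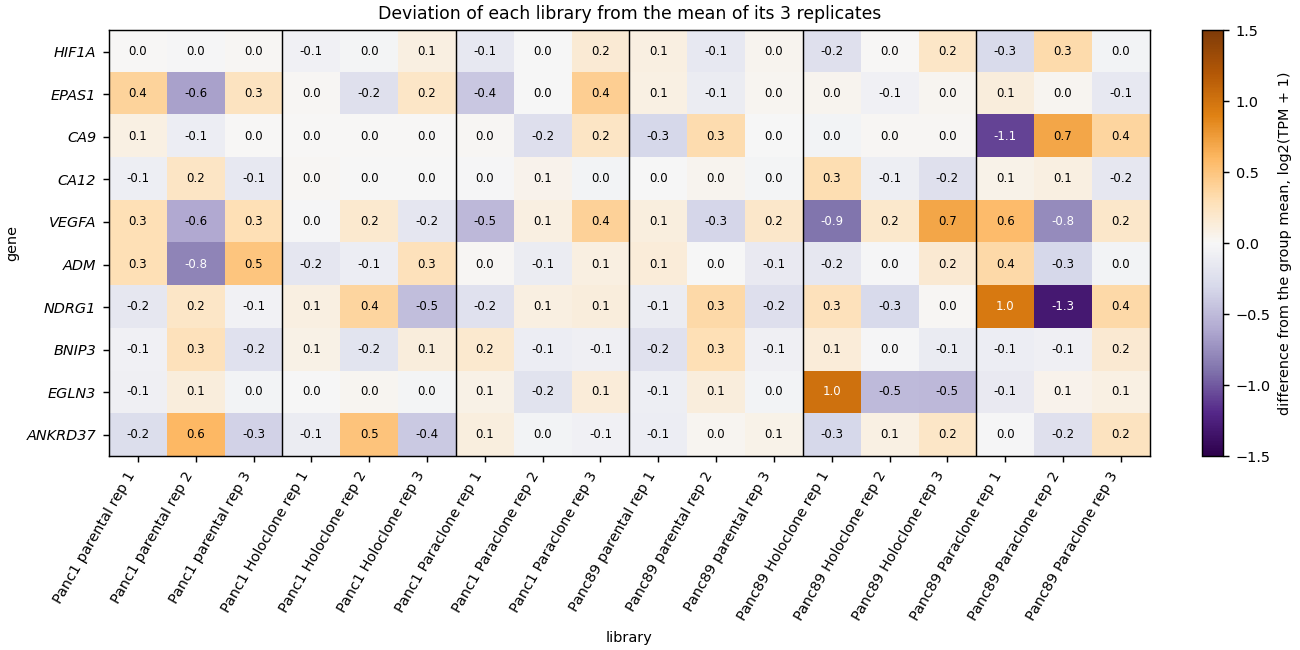
Difference of each library (columns) from the mean of its group, in log2(TPM + 1), for each of the 10 genes (rows), with lines between the groups. The farthest values are NDRG1 in Panc89 Paraclone replicates 1 and 2, CA9 in replicate 1 of the same group, and EGLN3 in Panc89 Holoclone replicate 1.

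HIF1A, the oxygen-regulated alpha subunit found in most cell types and encoded on chromosome 14 from 61695513 to 61748259 (plus strand, GRCh38, GENCODE 44), was lower in parental and Holoclone cells of Panc1 than in all other groups. In Panc1 it reached 66.3, 65.4 and 67.2 TPM in parental, 68.8, 70.7 and 77.6 TPM in Holoclone and 160.5, 177 and 198 TPM in Paraclone cells. In Panc89 it reached 212, 179 and 203 TPM in parental, 111, 131 and 152 TPM in Holoclone and 118, 182 and 139.5 TPM in Paraclone cells. All 3 Panc1 Paraclone libraries lay above all 6 other Panc1 libraries and among the Panc89 libraries, while every other Panc1 library lay below all 9 of Panc89. On the log2(TPM + 1) scale the Panc1 Holoclone cells were lower than the Panc1 Paraclone cells (log2 fold change −1.29 ± 0.15 SE, adjusted p = 5.81e-06) and the Paraclone cells exceeded the parental Panc1 cells (log2 fold change 1.41 ± 0.15 SE, adjusted p = 3.49e-06). In Panc89 the Holoclone minus Paraclone difference was −0.14 ± 0.15 SE, adjusted p = 0.488, with a 95% interval of −0.45 to 0.17. The 2 clone differences themselves differed by 1.15 ± 0.21 SE, adjusted p = 4.82e-04. Parental Panc89 cells exceeded parental Panc1 cells (log2 fold change 1.56 ± 0.15 SE, adjusted p = 1.34e-07), and the Holoclone cells of Panc89 exceeded those of Panc1 (log2 fold change 0.84 ± 0.15 SE, adjusted p = 1.01e-04). Between the Paraclone cells the difference was −0.30 ± 0.15 SE, adjusted p = 0.0827, and without replicate 2 of Panc89 Paraclone, the highest of that group, it was −0.47, adjusted p = 0.00667, within a range of adjusted p from 0.00325 to 0.368 over all alternatives.

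The antisense RNA HIF1A-AS1, whose exons overlap those of HIF1A on the opposite strand, was likewise highest in Panc1 Paraclone cells among the Panc1 groups. It reached 4.23 to 5.36 TPM in Panc1 Paraclone cells and 0 to 0.741 TPM in all 15 other libraries. HIF1A-AS3, which overlaps HIF1A too, lay between 0.269 and 2.13 TPM. The library kit was stranded, but the strand setting of the counting is not given in the sources used here, and whether reads of the antisense genes were counted for HIF1A was not tested.

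EPAS1, which encodes the second HIF alpha subunit (HIF2A) and lies on chromosome 2 from 46293667 to 46386697 (plus strand), had the smallest span of group means among the tested members, 1.23 on the log2 scale. It was measured at 99.8, 48.3 and 91.0 TPM in parental, 70.9, 59.8 and 81.9 TPM in Holoclone and 65.8, 88.1 and 119 TPM in Paraclone cells of Panc1. The Panc89 values were 62.2, 54.2 and 59.6 TPM in parental, 38.2, 35.3 and 37.8 TPM in Holoclone and 48.1, 44.9 and 39.7 TPM in Paraclone cells. All 3 Panc89 Holoclone libraries and all 3 Panc89 Paraclone libraries lay below every Panc1 library, of which replicate 2 of the parental cells was the lowest at 48.3 TPM. The Holoclone cells of Panc89 were lower than those of Panc1 (log2 fold change −0.90 ± 0.23 SE, adjusted p = 0.00306), and the Paraclone cells were lower (log2 fold change −0.99 ± 0.23 SE, adjusted p = 0.00182). Between the parental lines the difference was −0.37 ± 0.23 SE, adjusted p = 0.177, with a 95% interval of −0.87 to 0.13, and without that Panc1 parental library it was −0.69, adjusted p = 0.00552, with adjusted p from 0.00552 to 0.65 over all alternatives. The Holoclone minus Paraclone difference was −0.33, adjusted p = 0.307 in Panc1 and −0.24, adjusted p = 0.458 in Panc89. In Panc89 the Holoclone minus parental difference was −0.65 ± 0.23 SE, adjusted p = 0.0568, and over all alternatives its adjusted p ranged from 0.0056 to 0.146. Between the Holoclone cells of the lines HIF1A was therefore higher and EPAS1 lower in Panc89.

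EGLN3, a prolyl hydroxylase that marks HIF alpha subunits in the presence of oxygen and is itself a HIF target, lies on chromosome 14 from 33924227 to 34462774 (minus strand). The Panc1 levels were 0.432, 0.639 and 0.462 TPM in parental, 0.0929, 0.120 and 0.0701 TPM in Holoclone and 7.69, 6.12 and 8.03 TPM in Paraclone cells. The Panc89 levels were 13.8, 16.3 and 14.4 TPM in parental, 8.31, 2.26 and 2.25 TPM in Holoclone and 3.50, 4.13 and 4.26 TPM in Paraclone cells. Only the Paraclone cells of Panc1 exceeded 1 TPM among the variants of that line, and the parental cells were the highest among those of Panc89. Panc1 Holoclone cells were lower than Panc1 Paraclone cells (log2 fold change −2.91 ± 0.29 SE, adjusted p = 1.40e-06), and the Paraclone cells exceeded parental Panc1 cells (log2 fold change 2.45 ± 0.29 SE, adjusted p = 1.44e-05). In Panc89 both clones were lower than the parental cells, in Holoclone cells (log2 fold change −1.78 ± 0.29 SE, adjusted p = 2.88e-04) and in Paraclone cells (log2 fold change −1.68 ± 0.29 SE, adjusted p = 6.35e-04).

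Between the Panc89 clones the EGLN3 difference was −0.10 ± 0.29 SE, adjusted p = 0.831, with a 95% interval of −0.71 to 0.51. Replicate 1 of the Holoclone cells stood apart at 8.31 TPM against 2.26 and 2.25 TPM, and without it the difference was −0.61, adjusted p = 0.00299, with adjusted p from 0.00299 to 0.948 over all alternatives. Parental Panc89 cells exceeded parental Panc1 cells (log2 fold change 3.39 ± 0.29 SE, adjusted p = 4.27e-08), Panc89 Holoclone cells exceeded Panc1 Holoclone cells (log2 fold change 2.08 ± 0.29 SE, adjusted p = 1.05e-05), and the Paraclone cells were lower in Panc89 (log2 fold change −0.73 ± 0.29 SE, adjusted p = 0.0371). That last call was lost without replicate 1 or 3 of Panc1 Paraclone or any one replicate of Panc89 Paraclone, with values from −0.78 to −0.67 and adjusted p from 0.0584 to 0.0992, and over all alternatives its adjusted p ranged from 2.55e-04 to 0.348. The 0.348 came from the fit with a replicate block, which takes the difference at replicate 1 of each line and not between group means.

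The partners and brakes of the pathway were read from a list of 16 HIF regulators, of which 15 were tested. In Panc1, 6 of the 15 were higher and 2 lower in Holoclone than in Paraclone cells, 8 of 15 beside 37.3% of all genes tested, with a list median of 0.40 beside 0.19 over all genes tested. The coactivator CREBBP had the highest change of those called, at 1.16 ± 0.20 SE, adjusted p = 2.99e-04, and RBX1, a ring finger subunit of the VHL ligase, had the lowest, at −0.68 ± 0.18 SE, adjusted p = 0.00772, followed by ELOB (−0.31), which was named after their values were seen. Under either upper quartile or median-of-ratios scaling 4 of the 15 passed in place of 8, and without replicate 2 of Panc1 Holoclone or replicate 2 of Panc1 Paraclone 5 passed. In Panc89, 5 were higher and 1 lower, 6 of 15 beside 35.7%, with CREBBP again highest at 1.45 ± 0.20 SE, adjusted p = 4.09e-05 and the ARNT relative ARNT2 lowest at −1.91 ± 0.24 SE, adjusted p = 1.70e-05. The list median in Panc89 was 0.00 beside 0.09 over all genes. ARNT2 was measured at 1.69, 0.956 and 1.35 TPM in parental Panc1 and at 1.20, 1.41 and 1.15 TPM in parental Panc89 cells. Its log2 fold change over the parental cells was 2.15 and 1.63 in Panc1 Holoclone and Paraclone cells and 0.87 and 2.78 in those of Panc89, and all 4 passed the threshold. Between the parental lines 2 regulators were higher in Panc89, EP300 (0.75 ± 0.13 SE, adjusted p = 8.51e-05) and CITED2 (0.62), the latter named after their values were seen, and 6 were lower, lowest of them ELOB, an elongin of the VHL ligase (−1.72 ± 0.09 SE, adjusted p = 7.71e-11), so that 8 of 15 were called beside 66% of all genes.

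CA9, the membrane-bound carbonic anhydrase that helps hypoxic tumour cells dispose of acid, is encoded on chromosome 9 from 35673928 to 35681159 (plus strand). It was at 4.30 TPM or more in parental and Paraclone cells of Panc89, below 1 TPM in Panc89 Holoclone cells and near or at 0 in Panc1. CA9 thus passed the filter of 1 TPM in 3 libraries only through the groups where it was high. Its calls against the lower groups are not independent of that filter, and the counts of called members given below include them. With the filter of 1 TPM in 9 libraries CA9 was not tested. The Panc89 levels were 4.30, 7.21 and 5.57 TPM in parental, 0.582, 0.649 and 0.654 TPM in Holoclone and 6.77, 25.8 and 20.5 TPM in Paraclone cells. In Panc1 it was listed at 0 in all 3 Holoclone libraries and in 1 parental and 1 Paraclone library, and the other 4 libraries lay between 0.0781 and 0.376 TPM. All 9 Panc89 libraries lay above all 9 Panc1 libraries, and within Panc89 the Holoclone libraries lay below the rest. Panc89 Holoclone cells were lower than Panc89 Paraclone cells (log2 fold change −3.34 ± 0.32 SE, adjusted p = 1.04e-06), and lower than parental Panc89 cells (log2 fold change −2.02 ± 0.32 SE, adjusted p = 2.49e-04). Panc89 Paraclone cells exceeded the parental cells (log2 fold change 1.33 ± 0.32 SE, adjusted p = 0.0081), a call that was lost when these groups were fitted alone (1.33, adjusted p = 0.143) or with a pseudocount of 0.1 TPM (1.45, adjusted p = 0.0746), with replicate 1 of the Paraclone cells far below the other two. Parental Panc89 cells exceeded parental Panc1 cells (log2 fold change 2.62 ± 0.32 SE, adjusted p = 2.84e-06), and the Paraclone cells of Panc89 exceeded those of Panc1 (log2 fold change 3.81 ± 0.32 SE, adjusted p = 4.43e-08). For a direct comparison with the Panc1 Holoclone cells no fold is given, because CA9 was listed at 0 there. The difference between the clone differences includes those cells and is given later with this limit. The exons of CA9 overlap those of ARHGEF39 on the opposite strand, and ARHGEF39 was measured at 4.17 to 32.9 TPM across the libraries, at 11.04 to 32.9 TPM in parental Panc1 cells where CA9 was near 0. In Panc89 Paraclone cells ARHGEF39 lay at 5.39 to 32.2 TPM, and both genes were highest in replicate 2 and lowest in replicate 1. Whether reads of ARHGEF39 were counted for CA9 was not tested.

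CA12, the other membrane-bound carbonic anhydrase known from hypoxic tumours, lies on chromosome 15 from 63321378 to 63381846 (minus strand) and had its highest mean in parental Panc89 cells, at 0.668, 0.726 and 0.652 TPM. Its replicates overlapped between every pair of neighbours in the order of the 6 groups. Of 13 other carbonic anhydrase genes listed, 5 were tested. Between the parental lines 1 was higher in Panc89, the cytosolic CA2 (5.36 ± 0.30 SE, adjusted p = 3.43e-10), and 2 were lower, the mitochondrial CA5B (−0.97) and CA8, a relative without enzyme activity (−4.83 ± 0.23 SE, adjusted p = 4.11e-11), of which CA5B was named after their values were seen. In Holoclone against Paraclone cells 2 of the 5 were higher in Panc1, CA13 (1.71 ± 0.18 SE, adjusted p = 3.05e-06) and CA2 (1.53 ± 0.30 SE, adjusted p = 9.24e-04), and 2 in Panc89, CA11 (1.77 ± 0.27 SE, adjusted p = 1.04e-04) and CA13 (1.21 ± 0.18 SE, adjusted p = 9.96e-05), and 0 were lower in either line, where CA2 in Panc1 and CA13 in Panc89 were named after their values were seen.

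VEGFA, the growth factor that recruits blood vessels, lies on chromosome 6 from 43770184 to 43786487 (plus strand) and was higher in parental and Holoclone cells of Panc89 than in those of Panc1. In Panc1 it was measured at 135, 71.1 and 135 TPM in parental, 80.6, 93.0 and 72.4 TPM in Holoclone and 79.0, 121 and 149 TPM in Paraclone cells. Panc89 gave 333, 246 and 356 TPM in parental, 314, 662 and 939 TPM in Holoclone and 316, 125 and 246 TPM in Paraclone cells. The groups overlapped within each line, and the Panc89 Holoclone libraries spread from 314 to 939 TPM. Parental Panc89 cells exceeded parental Panc1 cells (log2 fold change 1.49 ± 0.39 SE, adjusted p = 0.00354), and Panc89 Holoclone cells exceeded Panc1 Holoclone cells (log2 fold change 2.82 ± 0.39 SE, adjusted p = 1.20e-05). Between the Paraclone cells the difference was 0.91 ± 0.39 SE, adjusted p = 0.0564, and it was 1.30, adjusted p = 0.0099 without replicate 2 of Panc89 Paraclone and 1.12, adjusted p = 0.0425 without replicate 3 of Panc1 Paraclone, with adjusted p from 4.76e-04 to 0.222 over all alternatives. Panc89 Holoclone cells exceeded Panc89 Paraclone cells (log2 fold change 1.44 ± 0.39 SE, adjusted p = 0.00965), a call that was lost when these groups were fitted alone (1.44, adjusted p = 0.106) or without replicate 3 of the Holoclone cells (1.09, adjusted p = 0.0549). In Panc1 the same difference was −0.46 ± 0.39 SE, adjusted p = 0.397, and the 2 clone differences differed by 1.90 ± 0.56 SE, adjusted p = 0.015. Against the parental cells the Panc89 Holoclone difference was 0.91 ± 0.39 SE, adjusted p = 0.108, and 1.35, adjusted p = 0.0147 without replicate 1 of the Holoclone cells.

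ADM, which encodes the vasodilator peptide adrenomedullin and lies on chromosome 11 from 10305073 to 10307397 (plus strand), had the opposite line preference and, on the log2(TPM + 1) scale, the widest span of group means among the members, 5.37. In Panc1 it was measured at 305, 142 and 351 TPM in parental, 390.0, 410.4 and 532 TPM in Holoclone and 159, 145 and 168 TPM in Paraclone cells. In Panc89 it was measured at 12.3, 11.05 and 9.9998 TPM in parental, 26.6, 29.5 and 33.6 TPM in Holoclone and 12.6, 7.58 and 9.41 TPM in Paraclone cells. Every Panc1 library was above every Panc89 library, and within each line the Holoclone libraries were above all others. Panc89 was lower than Panc1 in parental cells (log2 fold change −4.36 ± 0.26 SE, adjusted p = 6.29e-10), in Holoclone cells (log2 fold change −3.84 ± 0.26 SE, adjusted p = 2.85e-09) and in Paraclone cells (log2 fold change −3.89 ± 0.26 SE, adjusted p = 2.60e-09). Holoclone cells exceeded Paraclone cells in Panc1 (log2 fold change 1.48 ± 0.26 SE, adjusted p = 3.55e-04) and in Panc89 (log2 fold change 1.53 ± 0.26 SE, adjusted p = 2.80e-04). The difference between these 2 clone differences was 0.05 ± 0.37 SE, adjusted p = 0.935, with a 95% interval of −0.73 to 0.83. Panc89 Holoclone cells exceeded their parental cells (log2 fold change 1.35 ± 0.26 SE, adjusted p = 0.00121). In Panc1 the Holoclone minus parental difference was 0.83 ± 0.26 SE, adjusted p = 0.0534, where replicate 2 of the parental cells was low at 142 TPM. Over its alternatives this difference ranged from 0.43 to 1.08 and its adjusted p from 0.0184 to 0.245, with 0.98, adjusted p = 0.0494 without replicate 1 and 1.08, adjusted p = 0.0184 without replicate 3 of the parental cells. The Paraclone minus parental difference in Panc1 was −0.65 ± 0.26 SE, adjusted p = 0.0737, and −1.05, adjusted p = 7.21e-04 without replicate 2 of the parental cells.

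BNIP3, a mitochondrial protein that tags mitochondria for removal by autophagy, lies on chromosome 10 from 131967684 to 131981967 (minus strand) and was higher in Panc1. In Panc1 it was measured at 72.4, 91.6 and 64.8 TPM in parental, 64.6, 53.6 and 67.1 TPM in Holoclone and 92.4, 75.4 and 76.7 TPM in Paraclone cells. In Panc89 it was measured at 24.2, 34.8 and 26.7 TPM in parental, 21.8, 19.6 and 18.1 TPM in Holoclone and 12.0, 12.3 and 14.7 TPM in Paraclone cells. The lines did not overlap, and within Panc89 the 3 groups did not overlap either, in the order parental, Holoclone and Paraclone. Panc89 was lower in parental cells (log2 fold change −1.39 ± 0.16 SE, adjusted p = 1.21e-06), in Holoclone cells (log2 fold change −1.59 ± 0.16 SE, adjusted p = 2.62e-07) and in Paraclone cells (log2 fold change −2.56 ± 0.16 SE, adjusted p = 9.60e-10). Holoclone cells exceeded Paraclone cells in Panc89 (log2 fold change 0.57 ± 0.16 SE, adjusted p = 0.00967). In Panc1 the difference was −0.40 ± 0.16 SE, adjusted p = 0.0603, and it was −0.64, adjusted p = 0.00426 with upper quartile scaling and −0.68, adjusted p = 0.00372 with median-of-ratios scaling, with a range over all alternatives of −0.68 to −0.30. The 2 clone differences differed by 0.97 ± 0.22 SE, adjusted p = 0.00314. The table holds 39 BNIP3 pseudogenes, whose reads could be shared with BNIP3, and their summed level lay between 0.0959 and 1.59 TPM per library.

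NDRG1, a stress-responsive protein studied as a suppressor of metastasis, lies on chromosome 8 from 133237175 to 133302022 (minus strand) and was higher in Panc89. In Panc1 it was measured at 9.88, 13.2 and 10.7 TPM in parental, 5.48, 6.85 and 3.34 TPM in Holoclone and 21.4, 26.8 and 27.3 TPM in Paraclone cells. In Panc89 it was measured at 98.6, 135 and 89.6 TPM in parental, 56.1, 37.4 and 46.9 TPM in Holoclone and 229, 46.8 and 149.9 TPM in Paraclone cells. The 3 Panc1 groups did not overlap, with Holoclone cells lowest and Paraclone cells highest, and in Panc89 replicate 2 of the Paraclone cells fell among the Holoclone libraries. Holoclone cells were lower than Paraclone cells in Panc1 (log2 fold change −2.11 ± 0.41 SE, adjusted p = 7.60e-04). In Panc89 they were lower (log2 fold change −1.33 ± 0.41 SE, adjusted p = 0.0181), a call lost when these groups were fitted alone (−1.33, adjusted p = 0.167) or without replicate 1 (−0.85, adjusted p = 0.105) or 3 of the Paraclone cells (−1.15, adjusted p = 0.0754) or replicate 2 of the Holoclone cells (−1.18, adjusted p = 0.0697). Panc89 exceeded Panc1 in parental cells (log2 fold change 3.14 ± 0.41 SE, adjusted p = 5.20e-06), in Holoclone cells (log2 fold change 2.96 ± 0.41 SE, adjusted p = 9.45e-06) and in Paraclone cells (log2 fold change 2.19 ± 0.41 SE, adjusted p = 2.23e-04). In Panc1 the Paraclone minus parental difference was 1.10 ± 0.41 SE, adjusted p = 0.055, and it passed with upper quartile scaling (1.27, adjusted p = 0.0406), with median-of-ratios scaling (1.32, adjusted p = 0.0355), with these groups fitted alone (1.10, adjusted p = 0.00882) and without the 3 libraries that stood apart (1.21, adjusted p = 0.003), with adjusted p from 0.003 to 0.144 over all alternatives. In Panc89 it was 0.14, adjusted p = 0.864, and 0.80, adjusted p = 0.0355 without replicate 2 of the Paraclone cells, with adjusted p from 0.0285 to 0.997 over all alternatives.

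ANKRD37, a small ankyrin repeat protein and HIF target, lies on chromosome 4 from 185396021 to 185400628 (plus strand) and reached at most 13.3 TPM. In Panc1 it was measured at 3.07, 6.31 and 2.81 TPM in parental, 2.53, 4.44 and 1.89 TPM in Holoclone and 6.37, 5.63 and 5.55 TPM in Paraclone cells. In Panc89 it was measured at 8.67, 9.53 and 9.82 TPM in parental, 3.94, 5.52 and 6.10 TPM in Holoclone and 10.9, 9.23 and 13.3 TPM in Paraclone cells. In both lines all 3 Holoclone libraries lay below all 3 Paraclone libraries. Holoclone cells were lower than Paraclone cells in Panc1 (log2 fold change −0.84 ± 0.25 SE, adjusted p = 0.0153) and in Panc89 (log2 fold change −0.98 ± 0.25 SE, adjusted p = 0.00667). The call in Panc1 was lost without replicate 1 (−0.79, adjusted p = 0.051) or replicate 3 of the Holoclone cells (−0.64, adjusted p = 0.0843). The difference between the clone differences was −0.13 ± 0.36 SE, adjusted p = 0.807, with a 95% interval of −0.89 to 0.63. Panc89 exceeded Panc1 in parental cells (log2 fold change 1.09 ± 0.25 SE, adjusted p = 0.00125), in Holoclone cells (log2 fold change 0.68 ± 0.25 SE, adjusted p = 0.0261) and in Paraclone cells (log2 fold change 0.82 ± 0.25 SE, adjusted p = 0.0108). The Holoclone call was lost without replicate 1 or 3 of Panc1 Holoclone or replicate 2 or 3 of Panc89 Holoclone, with adjusted p from 0.0722 to 0.133, and the Paraclone call without replicate 3 of Panc89 Paraclone (0.69, adjusted p = 0.0505). The Paraclone minus parental difference in Panc1 was 0.50 ± 0.25 SE, adjusted p = 0.159, and 0.80, adjusted p = 0.0202 without replicate 2 of the parental cells. The exons of ANKRD37 overlap those of UFSP2 on the opposite strand, which was measured at 14.4 to 26.8 TPM.

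Between the parental lines, 6 of the 9 tested genes were higher in Panc89, namely HIF1A, EGLN3, CA9, VEGFA, NDRG1 and ANKRD37, and 2 were lower, namely ADM and BNIP3. The 8 of 9 called stand beside 66% of all genes tested, 27.5% higher and 38.5% lower, and the higher genes were 41.6% of all calls, against 48.3% under upper quartile and 51.6% under median-of-ratios scaling. The median log2 fold change of the 9 was 1.49 beside −0.18 over all genes. Between the Holoclone cells 8 of 9 were called, 5 higher and 3 lower in Panc89, beside 65.8% of all genes, and between the Paraclone cells 7 of 9 were called, 3 higher and 4 lower, beside 60.7%. The median was 0.76 in Holoclone cells over the 8 genes other than CA9, which was listed at 0 in Panc1 Holoclone cells, and −0.30 in Paraclone cells over all 9, beside −0.11 and −0.00293 over all genes. ADM and BNIP3 were lower and NDRG1 and ANKRD37 higher in Panc89 in all 3 cell variants, while HIF1A, VEGFA and EGLN3 passed as higher in parental and Holoclone cells, and EGLN3 was lower in Panc89 Paraclone cells. For ADM, BNIP3 and NDRG1 the line held 89.1%, 86.4% and 71.8% of the sum of squares over the 18 libraries, and for HIF1A and EGLN3 it held 32.2% and 33.4%, with 62.1% and 61.6% held by the cell variants within a line. Without the 3 libraries that stood apart the counts were 9, 8 and 9 of 9, beside 69.4%, 70.3% and 66.1% of all genes.

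**Figure D3:**
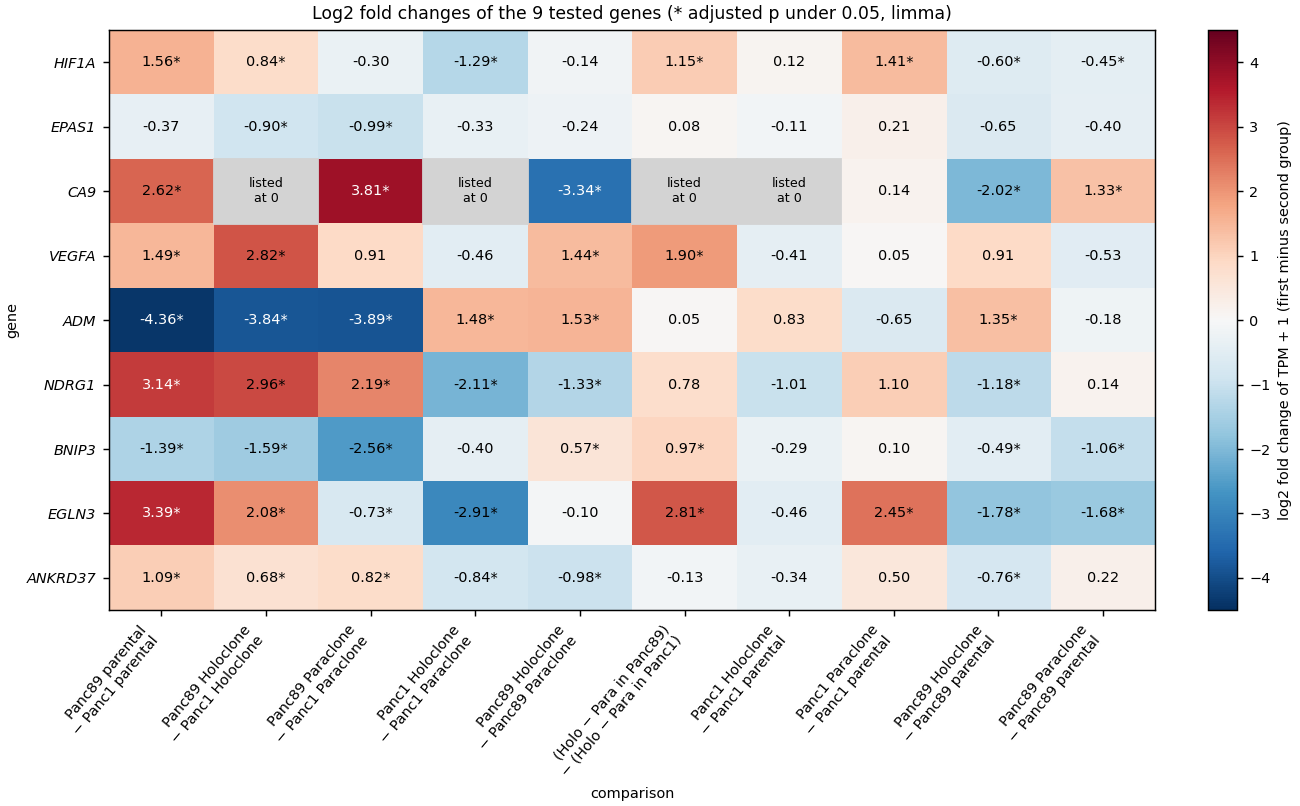
Log2 fold change of TPM + 1 (colour and number, first minus second group) of the 9 tested genes (rows) in the 10 comparisons (columns), with an asterisk for an adjusted p under 0.05 by limma. Gray cells mark CA9 where the Panc1 Holoclone cells, in which it was listed at 0, enter the comparison; ADM is lower in Panc89 by 3.84 to 4.36 in all 3 line comparisons.

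Within Panc1, Holoclone cells had lower HIF1A, EGLN3, NDRG1 and ANKRD37 and higher ADM than Paraclone cells. These 5 of 9 stand beside 37.3% of all genes tested, of which 27.4% were higher and 9.97% lower, and the median over the 8 genes other than CA9 was −0.65 beside 0.19 over all genes. Within Panc89, Holoclone cells had higher VEGFA, ADM and BNIP3 and lower CA9, NDRG1 and ANKRD37, which is 6 of 9 beside 35.7% of all genes, with a median of −0.14 beside 0.09. The calls over all genes lean to the higher side on the TPM scale, with 73.3% of those in Panc1 and 62.8% of those in Panc89 higher in Holoclone cells, against 51.3% and 52.5% under upper quartile scaling and 46.8% and 49.1% under median-of-ratios scaling.

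ADM, NDRG1 and ANKRD37 were called in the same direction in both lines. The Holoclone minus Paraclone difference itself differed between the lines for 5 of 9 genes, beside 35.1% of all genes. It was higher in Panc89 for HIF1A, VEGFA, BNIP3 and EGLN3, the last of these by 2.81 ± 0.41 SE, adjusted p = 7.15e-05, and lower for CA9, whose difference of −3.10 ± 0.45 SE, adjusted p = 7.89e-05 on the log2(TPM + 1) scale rests on Panc1 values near or at 0. For NDRG1 the difference between the lines was 0.78 ± 0.57 SE, adjusted p = 0.322, with a 95% interval of −0.44 to 2.00. Without the 3 libraries that stood apart, 6 of 9 genes passed in Panc1 and 7 in Panc89, and 5 differed between the lines.

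**Figure D4:**
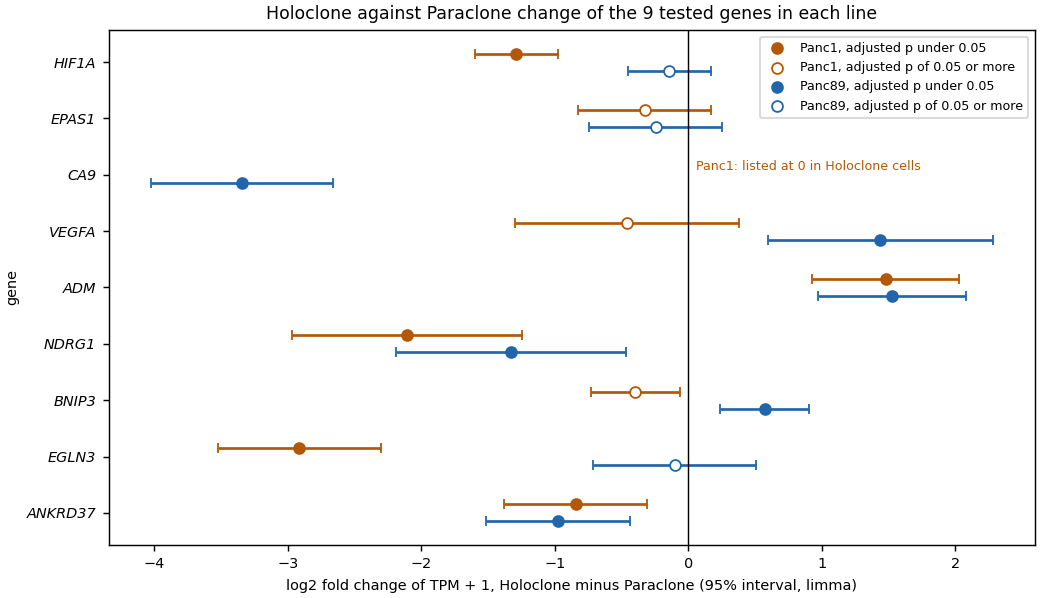
Holoclone minus Paraclone log2 fold change of TPM + 1 (x axis) with its 95% interval for each of the 9 tested genes (y axis) in Panc1 (brown) and Panc89 (blue), filled where the adjusted p is under 0.05. Only ADM, NDRG1 and ANKRD37 are filled on the same side of 0 in both lines, EGLN3 and HIF1A lie well below 0 in Panc1 and near it in Panc89, and CA9 in Panc1 is listed at 0 in Holoclone cells.

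Against the parental cells, the Panc1 Holoclone cells showed 0 of 9 genes past the threshold by limma, beside 10.9% of all genes tested, and the Panc1 Paraclone cells showed 2, HIF1A and EGLN3, both higher, beside 28.6%. At an unadjusted p under 0.05 the first count was 2, ADM and NDRG1. At the adjusted threshold the same count was 0 or 1 under the alternatives. Panc89 Holoclone cells had lower HIF1A, EGLN3, CA9, NDRG1, BNIP3 and ANKRD37 and higher ADM than parental Panc89 cells, 7 of 9 beside 24.7%, with a median of −0.65 beside 0.08 over all genes. Panc89 Paraclone cells had lower HIF1A, EGLN3 and BNIP3 and higher CA9, 4 of 9 beside 19.4%, with a median of −0.40 beside −0.02. HIF1A was lower in Panc89 Holoclone cells (log2 fold change −0.60 ± 0.15 SE, adjusted p = 0.00687) and in Panc89 Paraclone cells (log2 fold change −0.45 ± 0.15 SE, adjusted p = 0.0386). BNIP3 was lower in Panc89 Holoclone cells (log2 fold change −0.49 ± 0.16 SE, adjusted p = 0.0325) and in Panc89 Paraclone cells (log2 fold change −1.06 ± 0.16 SE, adjusted p = 1.85e-04). In Panc89 Holoclone cells NDRG1 was lower (log2 fold change −1.18 ± 0.41 SE, adjusted p = 0.0441) and ANKRD37 was lower (log2 fold change −0.76 ± 0.25 SE, adjusted p = 0.0391). Several of these calls were close to the threshold, and over all alternatives the adjusted p ranged from 0.00155 to 0.149 for NDRG1, 0.0211 to 0.124 for ANKRD37 and 0.00974 to 0.159 for BNIP3 in Holoclone cells and from 0.00148 to 0.195 for HIF1A in Paraclone cells. In Holoclone cells the NDRG1 call was lost without any one of the 3 parental libraries or replicate 2 or 3 of the Holoclone cells, with adjusted p from 0.0661 to 0.149. The ANKRD37 call was lost without any one parental library or replicate 1 or 2 of the Holoclone cells, with adjusted p from 0.0705 to 0.124, and the BNIP3 call without replicate 2 or 3 of either group, with adjusted p from 0.0569 to 0.159. In Paraclone cells the HIF1A call was lost without replicate 1 or 3 of either group, with adjusted p from 0.111 to 0.195. Without the 3 libraries that stood apart the counts were 1 and 5 in Panc1 Holoclone and Paraclone cells and 9 and 5 in those of Panc89, beside 13.7%, 34.5%, 34.2% and 34.5% of all genes. Of the calls over all genes, 25.6% were higher in Panc1 Paraclone and 65.2% in Panc89 Holoclone cells, against 47.4% and 51.3% under upper quartile and 55.2% and 51.1% under median-of-ratios scaling.

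The other genes of the pathway were read from hand-written lists. Of 21 genes of glycolysis known as HIF targets, which were all tested, 15 were lower and 0 higher in Panc1 Holoclone than in Panc1 Paraclone cells, beside 9.97% of all genes lower and 27.4% higher, with a list median of −0.75 beside 0.19 over all genes. The lowest of them was the aldolase ALDOC, at 4.51, 6.17 and 3.40 TPM in Holoclone and 22.2, 51.2 and 75.8 TPM in Paraclone cells, a difference of −3.02 ± 0.35 SE, adjusted p = 7.89e-06. The total of 15 ranged from 13 to 15 when each library was left out in turn and was 17 under both other scalings. In Panc89 2 of the 21 were higher, the hexokinases HK2 (0.95 ± 0.17 SE, adjusted p = 3.70e-04) and HK1 (0.71), and 4 were lower, the enolase ENO2 (−1.77 ± 0.46 SE, adjusted p = 0.00715), the lactate carrier SLC16A3 (−1.62), the glucose carrier SLC2A3 (−1.40) and the phosphofructokinase PFKP (−0.60), of which HK1, SLC16A3, SLC2A3 and PFKP were named after their values were seen. The 6 of 21 called in Panc89 stand beside 35.7% of all genes, and the list median there was −0.08 beside 0.09. HK2 was measured at 3.33, 2.69 and 3.38 TPM in Panc1 Holoclone and 10.3, 10.99 and 12.9 TPM in Panc1 Paraclone cells, and at 28.6, 36.3 and 41.0 and 18.5, 17.3 and 16.99 TPM in those of Panc89. The clone difference itself differed between the lines for 12 of the 21, beside 35.1% of all genes, 10 of them higher in Panc89, with ALDOC highest at 2.68 ± 0.50 SE, adjusted p = 6.40e-04 and ENO2 lowest at −2.57 ± 0.65 SE, adjusted p = 0.00623. Between the parental lines 10 were higher and 6 lower in Panc89, 16 of 21 beside 66%, with SLC2A3 highest at 3.46 ± 0.20 SE, adjusted p = 5.03e-10 and ENO2 lowest at −2.62 ± 0.46 SE, adjusted p = 1.17e-04. Against parental Panc1 cells the Panc1 Holoclone cells had 6 of the 21 lower and 0 higher, beside 10.9% of all genes called. The lowest was ALDOC at −1.89 ± 0.35 SE, adjusted p = 0.00219. Panc1 Paraclone cells had 5 higher and 0 lower than parental cells, beside 28.6%.

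Of 50 further HIF targets 47 were tested. In Panc1 Holoclone against Paraclone cells 6 were higher and 15 lower, 21 of 47 beside 37.3% of all genes, with a list median of −0.09 beside 0.19, and in Panc89 8 were higher and 18 lower, 26 of 47 beside 35.7%, with a list median of −0.33 beside 0.09 over all genes. VLDLR, a lipoprotein receptor, was the highest of those called in both lines, at 1.38 ± 0.24 SE, adjusted p = 2.85e-04 in Panc1 and 1.67 ± 0.24 SE, adjusted p = 5.31e-05 in Panc89. The lowest was the secreted glycoprotein STC1 in Panc1 and the chemokine receptor CXCR4 in Panc89. STC1 was measured at 0.0553, 0.200 and 0.1001 TPM in Panc1 Holoclone and 34.3, 30.2 and 28.9 TPM in Panc1 Paraclone cells, a difference of −4.84 ± 0.28 SE, adjusted p = 3.84e-09, and at 127, 75.1 and 91.4 and 1314, 461 and 978 TPM in those of Panc89. CXCR4 differed by −4.30 ± 0.28 SE, adjusted p = 1.43e-08 between the Panc89 clones. Between the parental lines 14 were higher and 15 lower in Panc89, 29 of 47 beside 66%, with STC1 highest at 6.67 ± 0.28 SE, adjusted p = 1.24e-11. Against parental Panc1 cells the Panc1 Holoclone cells had 2 of the 47 higher and 3 lower, beside 10.9% of all genes called, and the Panc1 Paraclone cells 14 higher and 5 lower, beside 28.6%.

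**Figure D5:**
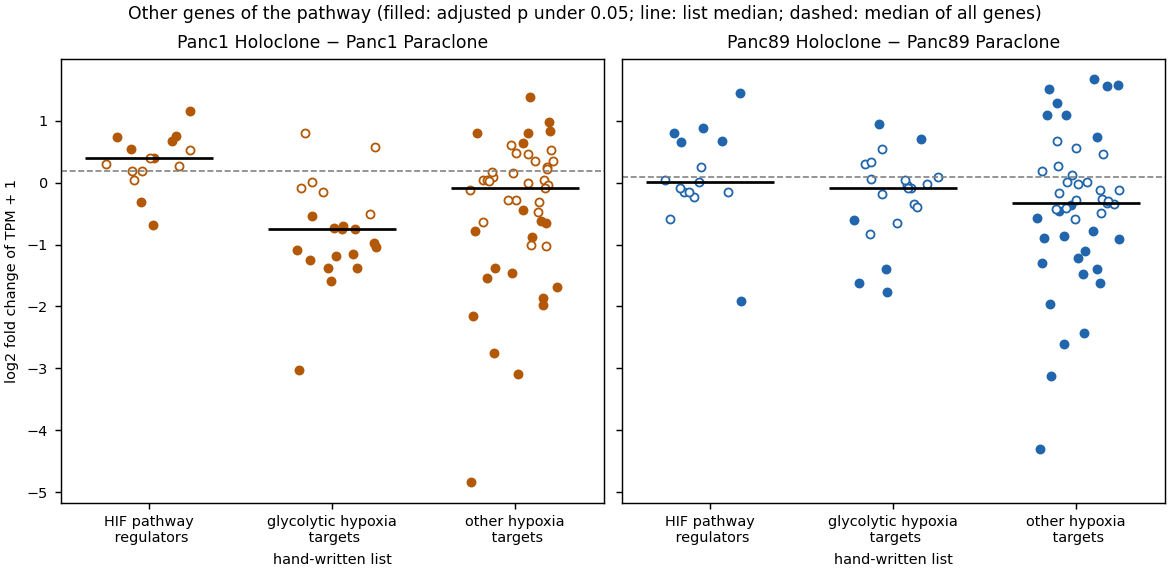
Holoclone minus Paraclone log2 fold change of TPM + 1 (y axis) of each tested gene of the 3 lists (x axis) in Panc1 (left) and Panc89 (right), filled where the adjusted p is under 0.05; solid lines are list medians and dashed lines the median of all genes. The median of the glycolytic targets is −0.75 in Panc1 and −0.08 in Panc89.

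For the 6 members whose group means spanned at least 2 on the log2 scale, the gene with the most similar profile over the 18 libraries was sought by the mean absolute difference between centred profiles. These were SERPINB4 for CA9 at 0.26, PIP5KL1 for VEGFA at 0.28, MERTK for ADM at 0.24, TSC22D1 for NDRG1 at 0.31, RERE for BNIP3 at 0.21 and PLSCR4 for EGLN3 at 0.44. Members were left out of this search, so that whether members resemble one another was not examined. None of the genes found was on the lists above. The measure describes these libraries and carries no test.

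The labelled lines were checked against markers. The epithelial cadherin CDH1 was measured at 73.3 to 107 TPM in Panc89 and at 0.671 to 3.51 TPM in Panc1. The sum of 6 epithelial markers overlapped, at 4020 to 6860 TPM in Panc89 and 2600 to 5030 TPM in Panc1. KRT7, KRT19 and EPCAM had higher means in Panc89 in each variant, but KRT8 and KRT18 had higher means in parental and Holoclone cells of Panc1. The summed mesenchymal markers VIM, CDH2 and ZEB1 lay at 2.62 to 12.1 TPM in Panc89 and 2050 to 5060 TPM in Panc1, there mostly VIM. CDH2 overlapped between the lines, with group means of 3.10 to 8.32 TPM in Panc89 and 1.38 to 13.8 TPM in Panc1. The summed leukocyte markers PTPRC, CD3E and LYZ stayed at or below 1.79 TPM in every library. The endothelial marker PECAM1 was measured at 64.7, 53.2 and 62.5 TPM in parental Panc89, 0.565 to 1.25 TPM in Panc89 Holoclone and 1.92 to 6.90 TPM in Panc89 Paraclone cells, and the endothelial cadherin CDH5 at 1.99 to 5.07 TPM, 0.278 to 0.551 TPM and 0.969 to 1.91 TPM in the same order. The endothelial receptor KDR was at or below 0.0141 TPM in all 9 Panc89 libraries. The summed endothelial markers PECAM1, CDH5 and KDR lay at 55.1 to 68.9 TPM in parental, 0.913 to 1.81 TPM in Holoclone and 2.89 to 8.80 TPM in Paraclone cells of Panc89 and at or below 0.316 TPM in Panc1. The 5 fibroblast markers summed to between 1.39 and 27.3 TPM, mostly COL1A1. PECAM1 and CDH5 were thus both highest in parental and lowest in Holoclone cells of Panc89. Among the members HIF1A, EPAS1, EGLN3, BNIP3 and CA12 had their highest Panc89 mean in parental cells. Of these, HIF1A and EPAS1 had their lowest mean in Holoclone cells, BNIP3 and CA12 had theirs in Paraclone cells, and the EGLN3 libraries of the clones overlapped. CA9, NDRG1 and ANKRD37 had their highest Panc89 mean in Paraclone cells, and VEGFA and ADM had theirs in Holoclone cells. The part of the endothelial markers in these results was not tested. In such bulk RNA, fewer cells with a transcript and less of it per cell cannot be told apart.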

How the data were processed

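RNA was taken from cells of 3 passages of each of 6 groups, and mRNA libraries were made with a stranded kit and sequenced as paired ends. The authors quantified reads with kallisto 0.46.1 on the Ensembl transcripts of GRCh38 and used tximport to obtain scaled TPM per gene. The deposited table holds log2 values whose back-transformed levels, 2 to the power of the value minus 1, sum to 985339 to 988066 per library, so they were read as log2(TPM + 1). TPM keeps no depth, so the read depth is unknown, and no counting interval is given. Of 40266 symbols, 10923 were at 0 in all 18 libraries.

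The fit used limma 3.58.1 in R 4.3.3 (limma-trend, group means of all 6 groups, 12 residual degrees of freedom) on genes that reached 1 TPM in 3 or more libraries, with Benjamini-Hochberg adjustment and a threshold of 0.05, all tests being two-sided. The code was tested on simulated data. The 10 members are named throughout, and from 4 hand-written lists the called genes with the highest and the lowest change, with others said to be named after their values were seen. A gene that this rule names is not reported here. The genes of the most similar profile were sought among tested genes other than the members, for members spanning at least 2 on the log2 scale. The rule that takes the members from the table uses symbols alone, but members and lists were chosen with earlier results of these data known. Alternatives were a pseudocount of 0.1 TPM, no filter or 1 TPM in 9 libraries, upper quartile and median-of-ratios scaling, limma without the trend, only the groups compared, a replicate block, a log2 fold change over 1, each library left out, and, chosen after seeing the data, 3 libraries left out together. Gene positions are those of GENCODE 44 and promoters those of RefSeq.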

Additional observations from a re-analysis of the deposited data

Results flagged for a closer look

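For 5 of the 9 tested genes the Holoclone minus Paraclone change differed between Panc89 and Panc1 in the limma interaction test, on the log2(TPM + 1) scale with 3 libraries a group. The Panc89 change minus the Panc1 change was 1.15 for HIF1A (adjusted p = 4.82e-04), 1.90 for VEGFA (adjusted p = 0.015), 0.97 for BNIP3 (adjusted p = 0.00314) and 2.81 for EGLN3 (adjusted p = 7.15e-05). For CA9 it was −3.10 (adjusted p = 7.89e-05), where the Panc1 Holoclone cells are listed at 0. Of all genes tested, 35.1% passed the same test. Over the alternatives the value ranged from 1.00 to 1.43 for HIF1A, from 1.52 to 2.34 for VEGFA, from 0.87 to 1.12 for BNIP3 and from 2.31 to 5.07 for EGLN3, the highest with a pseudocount of 0.1 TPM.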

How the results depend on the processing

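Of 1484 recomputed log2 fold changes of members, 1352 kept their direction and their side of the threshold, 69 lost and 37 gained a call, and 26 changed sign, none of them in a comparison where the gene was called. Of 166 recomputed counts of members, 151 stayed within 1.5 times the reported one. The cause of these changes was not tested. A required log2 fold change over 1, which can only remove calls, left 5 members between the Holoclone cells, 4 between the Paraclone cells and 4 in Panc89 Holoclone against parental cells. Panc89 Paraclone against parental cells gave 2 in place of 4 when only these groups were fitted. Panc1 Holoclone against parental cells gave 1 in place of 0 with a pseudocount of 0.1 TPM, with only these groups, with the replicate block and without the 3 libraries, and 0 to 1 with each library left out. Panc1 Paraclone against parental cells gave 2 to 4 with each library left out, the highest without replicate 2 of the parental cells, and 5 without the 3 libraries. Panc89 Holoclone against parental cells gave 4 to 7 with each library left out, lowest without replicate 2 of Holoclone or replicate 2 or 3 of parental cells.

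Changes of sign came with libraries left out. With each left out in turn, the Panc89 minus Panc1 clone change ranged from −0.11 to 0.22 for ADM, −0.33 to 0.12 for ANKRD37 and −0.13 to 0.29 for EPAS1, and Holoclone minus Paraclone in Panc89 from −0.61 to 0.15 for EGLN3 and −0.29 to 0.024 for HIF1A. Against parental cells the range was −0.43 to 0.083 for EPAS1 in Panc1 Holoclone, −0.0042 to 0.24 for BNIP3, −0.11 to 0.42 for EPAS1 and −0.25 to 0.30 for VEGFA in Panc1 Paraclone and −0.34 to 0.80 for NDRG1 in Panc89 Paraclone cells. Without the 3 libraries the clone change between lines was −0.030 for ADM and −0.014 for NDRG1, HIF1A differed by 0.14 between the Panc89 clones, and Panc1 Paraclone minus parental was −0.11 for EPAS1 and −0.25 for VEGFA.

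Replicate numbers are not stated to pair the samples. Deviations of same-numbered libraries of a line correlated at −0.318 to 0.19 over 18 pairs, with a mean of −0.0418. These correlations gave no sign of pairing but cannot exclude it, because each deviation is taken from a mean of only 3 libraries. With the number as a replicate block, ADM passed in Panc1 Holoclone against parental cells (0.83, adjusted p = 0.0461) and EPAS1 in Panc89 Holoclone against parental cells (−0.65, adjusted p = 0.045). Calls were lost for BNIP3 (−0.49, adjusted p = 0.072) and NDRG1 (−1.18, adjusted p = 0.0523) in Panc89 Holoclone and HIF1A (−0.45, adjusted p = 0.057) in Panc89 Paraclone against parental cells. Between the lines, the block fit takes the difference at the level of replicate 1 in each line and not between group means. Its values there are another quantity, and a lost call cannot be laid to pairing. They were 0.63, adjusted p = 0.0615 for ANKRD37 between the Holoclone cells and −0.47, adjusted p = 0.348 for EGLN3 between the Paraclone cells. Such values are part of the ranges and counts over all alternatives.

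TPM values carry no read depth, so that the precision of low genes such as CA9 and CA12 in Panc1 is unknown. With 3 passages of 1 clone a group, a difference that missed the threshold was not shown to be absent.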
